A study of Mus musculus with 6 samples.

Results

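The tuft cell genes are 9 markers of the chemosensory tuft cells of the gut, namely Dclk1, Trpm5, Pou2f3, Avil, Il25, Ptgs1, Gfi1b, Rgs13 and Gnat3. Of these, 7 were measured through 17 probe sets, of 18193 genes and 34945 probe sets that carried a single gene symbol in the array's probe table. Where a gene had several probe sets, the one with the highest mean on the log2(intensity + 16) scale stood for it. Ptgs1, the constitutive cyclooxygenase, and Gnat3, the taste G protein subunit gustducin, were not analysed because no single-symbol probe set was matched to them.

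The study inhibited gamma-secretase in mice to obtain the expression signature of NOTCH1 blockade in the intestine. GFP-bright cells of the small intestine were collected by sorting 24 h after treatment. They came from 3 mice that received DBZ, a gamma-secretase inhibitor, and 3 mice that received the DMSO vehicle. RNA of the cells was hybridised to 1 Affymetrix array per mouse. All mice of both groups carried Lgr5-EGFP-IRES-creERT2, a cassette in the Lgr5 gene that places EGFP and an inducible Cre under the control of that stem cell gene. The titles call the mice biological replicates and put each array in its group, whereas the description field names DMSO on all 6 arrays. The sort kept cells by reporter level, and its purity was not tested here. The labels used here give no age, sex or background strain.

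Tuft cells are rare epithelial cells that sense luminal chemicals with parts of the taste cascade: a G protein acts on a phospholipase, and the released calcium opens the cation channel Trpm5. Their formation depends on the transcription factor Pou2f3, and they are the gut's source of the cytokine Il25, which calls on innate lymphoid cells during worm infection. Like the other epithelial cell types they descend from the Lgr5-bearing stem cells of the crypt base, whose upkeep depends on Notch signalling.

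Dclk1, Avil and Rgs13 shared 1 profile over the 6 arrays, and their promoter windows are shown for that reason. RefSeq promoters (GRCm38.p6, 250 bases before to 50 bases after a gene start) were matched for 7 of the 9 genes, in 8 windows, since Dclk1 has 2 starts. The octamer bound by POU factors (ATGCAAAT, both strands) was found in none of the 8 windows and in 1.74% of the 32851 windows of all genes. Its first 7 letters (ATGCAAA, both strands), which every octamer match also contains, were found in 4.63% of all windows and in 1 of the 8, that of Avil. This window held 2 matches, in capitals, at bases 136 (minus strand) and 236 (plus strand) counted from its 5′ end. The RBPJ motif GTGGGAA, by which Notch complexes bind, and the E-box CAGCTG (both on either strand) were in none of the 8, and in 6.38% and 16.3% of all windows. The Avil window lies at chr10:127000459-127000758 on the plus strand, that of Rgs13 at chr1:144177323-144177622 on the minus strand, and those of Dclk1 at chr3:55242114-55242413 and chr3:55461478-55461777 on the plus strand.
Avil: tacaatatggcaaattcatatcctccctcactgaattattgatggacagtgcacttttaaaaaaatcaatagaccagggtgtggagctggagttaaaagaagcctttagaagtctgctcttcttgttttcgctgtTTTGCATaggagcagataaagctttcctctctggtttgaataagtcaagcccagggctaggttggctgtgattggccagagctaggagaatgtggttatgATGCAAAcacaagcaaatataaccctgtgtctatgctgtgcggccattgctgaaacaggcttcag
Rgs13: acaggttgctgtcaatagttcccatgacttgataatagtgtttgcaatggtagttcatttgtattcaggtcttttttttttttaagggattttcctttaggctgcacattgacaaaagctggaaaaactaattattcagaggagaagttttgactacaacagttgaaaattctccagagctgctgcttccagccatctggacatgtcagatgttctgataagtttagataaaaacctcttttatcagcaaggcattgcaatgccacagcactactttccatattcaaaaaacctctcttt
Dclk1 first start: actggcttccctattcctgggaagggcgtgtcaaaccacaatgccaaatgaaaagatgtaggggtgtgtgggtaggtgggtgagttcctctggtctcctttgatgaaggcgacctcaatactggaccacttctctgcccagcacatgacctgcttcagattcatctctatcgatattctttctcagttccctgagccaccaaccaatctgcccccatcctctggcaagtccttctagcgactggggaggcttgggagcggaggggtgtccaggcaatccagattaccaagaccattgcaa
Dclk1 second start: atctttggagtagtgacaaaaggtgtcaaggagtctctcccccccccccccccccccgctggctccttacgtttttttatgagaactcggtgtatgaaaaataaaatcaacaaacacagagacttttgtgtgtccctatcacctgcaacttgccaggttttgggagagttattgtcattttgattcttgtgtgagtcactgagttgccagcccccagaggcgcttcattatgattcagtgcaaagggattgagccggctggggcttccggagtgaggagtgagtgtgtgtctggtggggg

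The arrays were comparable in overall level, with medians of 45.3 to 45.5 intensity units in DBZ and 44.9 to 46.3 in vehicle arrays. The stem cell label was checked first. Lgr5 was at 242, 209 and 239 in DBZ replicates 1, 2 and 3, against 204, 259.6 and 271 in vehicle replicates 1, 2 and 3. Olfm4, a crypt base gene that depends on Notch, was at 35.9, 18.6 and 29.9 in the DBZ arrays, against 3627, 4234 and 5177 in the vehicle arrays, so the groups differed as labelled. For the actin control probes, the 3′ signal divided by the 5′ signal, a measure of RNA integrity, was 1.53, 1.51 and 1.57 in DBZ and 2.22, 1.61 and 1.69 in vehicle arrays. The actin ratio moved with the groups. For the Gapdh control probes the ratio was 1.05, 1.09 and 1.08 in DBZ and 1.42, 1.11 and 1.07 in vehicle arrays, so the groups overlapped. Vehicle replicate 1 was highest on both controls. The part of RNA integrity in the results was not tested. DBZ changed 972 genes, 695 higher and 277 lower (limma, Benjamini-Hochberg adjusted p under 0.05), 5.34% of those tested. The counts were 584 higher and 384 lower (3.21% and 2.11%) after quantile normalization, and 536 and 390 (2.95% and 2.14%) after centring on array medians.

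None of the 7 measured tuft cell genes passed the test over all genes in either direction. For comparison, 3.82% of all genes passed as higher and 1.52% as lower, and 26.3% had an unadjusted p under 0.05, as did 3 of the 7 (Dclk1, Trpm5 and Avil). The log2 fold change was positive for 5 of the 7, with a median of 0.43, beside a median of -0.02 for all genes. The groups did not overlap for Trpm5 and Avil, both higher with DBZ, and for Il25, which was lower, where 17.3% and 15.8% of all genes were apart in these directions. The genes fell into a set with high values in DBZ replicates 2 and 3 (Dclk1, Avil, Rgs13 and, less far, Trpm5) and a set with similar values on all arrays (Pou2f3, Gfi1b and Il25). Each array measured all sorted cells together, so more tuft cells in the sort and more RNA per cell cannot be told apart.

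**Figure D1:**
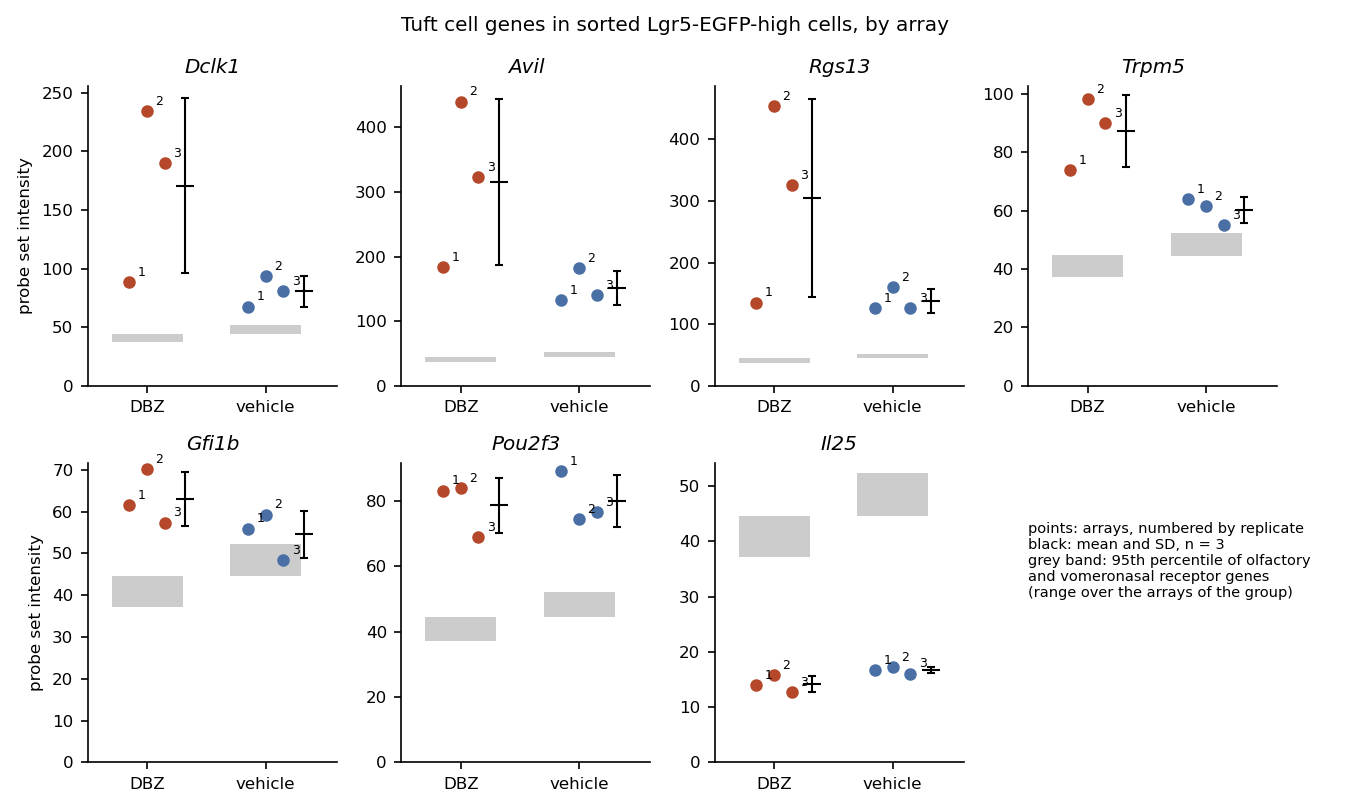
Intensity of the representative probe set (vertical axis, linear from 0) of the 7 measured tuft cell genes in each DBZ (left) and vehicle (right) array, with the mean and SD (n = 3) in black and the 95th percentile of 71 olfactory and vomeronasal receptor genes as a grey band over the arrays of the group. Dclk1, Avil and Rgs13 are highest in DBZ replicates 2 and 3, while DBZ replicate 1 lies close to the vehicle arrays, and Il25 lies below the band on all arrays.

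Dclk1 encodes a microtubule-associated kinase that is widely used to mark tuft cells. Its representative probe set read 88.6, 234 and 189.6 intensity units in DBZ replicates 1, 2 and 3, against 67.6, 93.3 and 80.5 in vehicle replicates 1, 2 and 3. DBZ replicates 2 and 3 stood above every vehicle array, and DBZ replicate 1 lay within their range, so the groups overlapped. The mean was 171 ± 74.5 in DBZ and 80.5 ± 12.8 in vehicle arrays (SD, n = 3). The difference on the log2 scale was 0.87 ± 0.32 (SE; limma, adjusted p = 0.157), and its 95% interval ran from 0.09 to 1.65. As the mean of all Dclk1 probe sets it was 0.56 (limma, adjusted p = 0.115).

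Dclk1 was covered by 9 probe sets, all with a positive log2 fold change. DBZ replicate 1 was the lowest of the 3 DBZ arrays in each of the 9, and DBZ replicates 2 and 3 stood above every vehicle array in 7 of them. In 4 probe sets all 3 DBZ arrays stood above the vehicle arrays. Among all genes 17.3% were apart in this direction, and the share among all probe sets was not computed. The 9 probe sets read the same gene in the same RNA samples, so these counts are not independent observations. The widest difference was that of 1436659_at, at 51.0, 88.6 and 112 in DBZ replicates 1, 2 and 3, against 25.8, 30.5 and 28.5 in vehicle replicates 1, 2 and 3, a log2 fold change of 1.12 ± 0.23 (SE; limma over all probe sets, adjusted p = 0.0585). Its vehicle values lay among the dim probe sets, and those of the DBZ arrays above them. Probe sets 1423125_at and 1451917_a_at stayed between 17.3 and 22.6 on all arrays, and with 1424270_at they were below the 95th percentile of the receptor genes throughout. Of the 17 probe sets of the tuft cell genes 0 passed in either direction (limma over all probe sets, adjusted p under 0.05), where 2.12% of all probe sets passed as higher and 0.747% as lower.

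**Figure D2:**
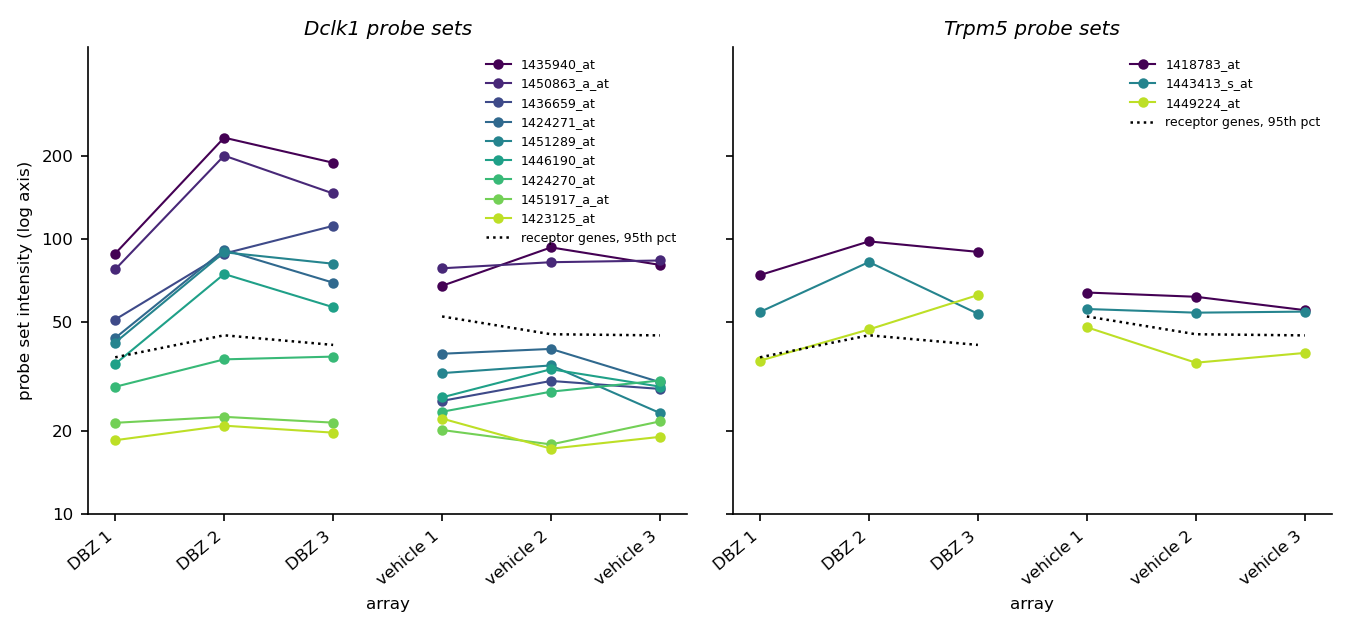
Intensity (log axis) of the 9 Dclk1 and 3 Trpm5 probe sets on the DBZ and vehicle arrays, 1 line per probe set and group, with the 95th percentile of the olfactory and vomeronasal receptor genes dotted. DBZ replicate 1 is the lowest DBZ array for all 9 Dclk1 probe sets, and of the Trpm5 probe sets only 1418783_at separates the groups.

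Avil encodes advillin, an actin-bundling protein of the villin family found in the tuft of these cells. It read 184, 439.7 and 323 in DBZ replicates 1, 2 and 3, against 133, 182 and 140.4 in vehicle replicates 1, 2 and 3. The groups were apart by a narrow margin, since DBZ replicate 1 lay just above the highest vehicle array. The log2 fold change was 0.91 ± 0.30 (SE; limma, adjusted p = 0.125), with a 95% interval of 0.18 to 1.64.

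Rgs13, a regulator that ends G protein signals, read 135, 454 and 326 in DBZ replicates 1, 2 and 3, against 126, 160.1 and 126 in vehicle replicates 1, 2 and 3. DBZ replicates 2 and 3 stood far above the vehicle arrays, at 3.30 and 2.37 times the vehicle mean, and DBZ replicate 1 lay within the vehicle range at 0.98 times. Over all arrays the log2 fold change was 0.92 ± 0.40 (SE; limma, adjusted p = 0.211), with a 95% interval of -0.06 to 1.90. The DBZ arrays differed among themselves by 3.36-fold, against 1.27-fold among the vehicle arrays.

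Likeness to Dclk1 was measured as the root mean square difference between profiles over the 6 arrays, each taken as log2(intensity + 16) minus the gene's own mean. Among the other 18192 genes the nearest was Avil, with a difference of 0.08, and Rgs13 ranked 5 with 0.13. Plscr1, a membrane protein gene, and Pgap1, an enzyme gene of GPI anchor processing, came next after Avil at 0.11 and 0.12. Plscr1 read 1879, 4380.0 and 3114 in DBZ replicates 1, 2 and 3, against 1471, 2049 and 1489 in vehicle replicates 1, 2 and 3. Pgap1 read 138, 297 and 245 in DBZ replicates 1, 2 and 3, against 84.9, 145 and 125 in vehicle replicates 1, 2 and 3. DBZ replicate 1 of both genes lay within the vehicle range. Trpm5 ranked 853, Gfi1b 3540, Il25 11154 and Pou2f3 11545. The order is a description of these 6 arrays, in which all genes share the same cells and the same hybridisation.

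Trpm5, the calcium-activated cation channel at the end of the taste cascade, read 74.0, 98.1 and 89.8 in DBZ replicates 1, 2 and 3, against 63.9, 61.7 and 55.1 in vehicle replicates 1, 2 and 3. All DBZ arrays stood above all vehicle arrays, with the smallest step again in DBZ replicate 1. The log2 fold change was 0.43 ± 0.10 (SE; limma, adjusted p = 0.0664), with a 95% interval of 0.18 to 0.68. The other probe sets of Trpm5 overlapped between the groups, at 0.15 for 1443413_s_at and 0.17 for 1449224_at, and the mean over all 3 was 0.25 (limma, adjusted p = 0.197).

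Pou2f3, the POU factor on which tuft cells depend, read 83.2, 83.9 and 69.1 in DBZ replicates 1, 2 and 3, against 89.2, 74.5 and 76.7 in vehicle replicates 1, 2 and 3. The groups overlapped, with a log2 fold change of -0.02 ± 0.10 (SE; limma, adjusted p = 0.912) and a 95% interval of -0.25 to 0.21. It thus did not share the high values of Dclk1, Avil and Rgs13 in DBZ replicates 2 and 3. Its 1 probe set was above the 95th percentile of the dim receptor genes on every array. It was also below the median gene on every array, at percentiles 41.4 to 46.5 of all genes.

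Gfi1b, a zinc finger repressor found in tuft cells and in blood lineages, read 61.5, 70.1 and 57.4 in DBZ replicates 1, 2 and 3, against 55.9, 59.3 and 48.4 in vehicle replicates 1, 2 and 3. The groups overlapped, with a log2 fold change of 0.16 ± 0.09 (SE; limma, adjusted p = 0.316). Il25 read 13.95, 15.8 and 12.8 in DBZ replicates 1, 2 and 3, against 16.7, 17.2 and 16.1 in vehicle replicates 1, 2 and 3. Its groups were apart, with a log2 fold change of -0.12 ± 0.06 (SE; limma, adjusted p = 0.296). These values lay near the median of the 71 olfactory and vomeronasal receptor genes, which was 13.8 to 14.7 in DBZ and 14.2 to 15.2 in vehicle arrays. The difference is therefore one between dim values, and no change of Il25 was detectable at this signal.

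Leaving out DBZ replicate 1 moved 4 of the 7 genes past the threshold, all higher, where 7.17% of all genes passed as higher in that comparison, and 4 is the highest count over the arrays left out 1 at a time. Their log2 fold changes were then 1.24 ± 0.15 for Dclk1, 1.24 ± 0.18 for Avil, 1.39 ± 0.17 for Rgs13 and 0.53 ± 0.09 for Trpm5 (SE; limma, adjusted p = 0.0124, 0.0187, 0.0139 and 0.0235). Of the 17 probe sets 9 passed as higher without that array, 6 of them of Dclk1, where 4.8% of all probe sets passed as higher and 2.22% as lower. With array weights 2 genes passed, Trpm5 at 0.54 and Avil at 1.12 (limma, adjusted p = 0.0188 and 0.0415), where 9.12% of all genes passed as higher and 5.66% as lower. Without any other single array 0 of the 7 passed. The background was then 0.945% higher and 0.247% lower without DBZ replicate 2, and 1.53% and 0.401% without DBZ replicate 3. It was 0.231% and 0.0385% without vehicle replicate 1, 0.0879% and 0.0165% without vehicle replicate 2, and 0.187% and 0.022% without vehicle replicate 3, so few genes of any kind passed there.

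The other genes of tuft cells were taken from 5 lists by role, which hold 53 genes, of which 48 were measured. Of these 5 rose and 0 fell, with 27 positive and a median log2 fold change of 0.04, beside -0.02 for all genes, of which 3.82% passed as higher and 1.52% as lower. The 5 were Nrep, Alox5ap, Cd24a, Sox9 and Skap2, all of which other cell types are known to express as well. Without DBZ replicate 1 the count was 8 higher and 2 lower, where 7.17% and 4% of all genes passed in these directions. It was 1 without DBZ replicate 2 and without vehicle replicate 1, 2 or 3, in each case Nrep.

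**Figure D3:**
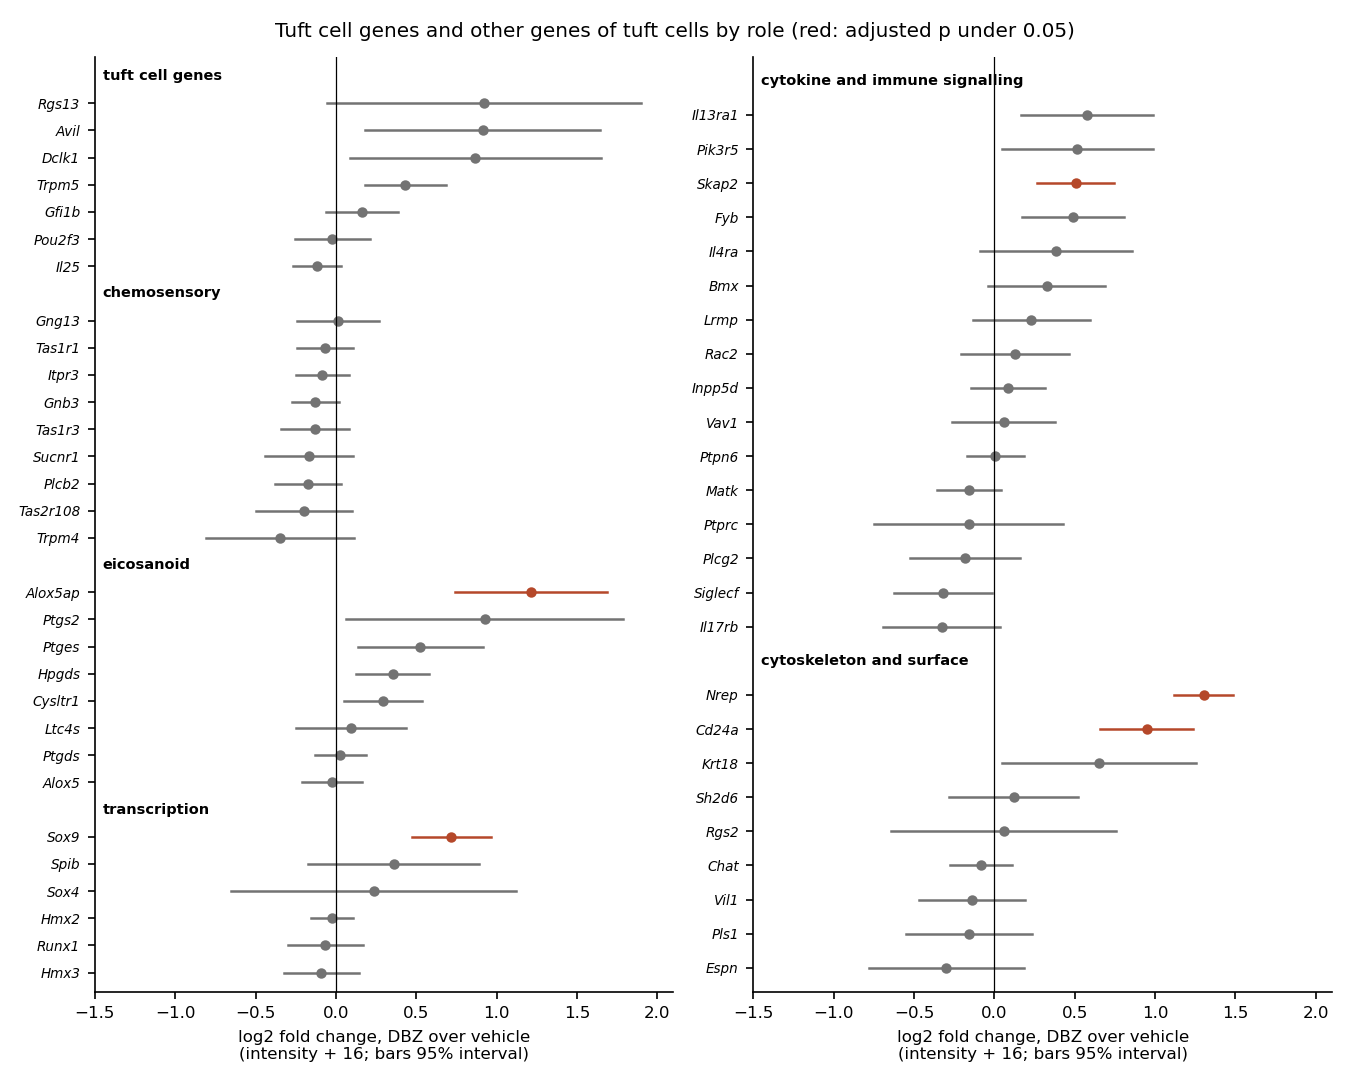
Log2 fold change of DBZ over vehicle on the log2(intensity + 16) scale (horizontal axis) with its 95% interval for the 7 measured tuft cell genes and 48 other genes of tuft cells by role, in red where the adjusted p was under 0.05. The chemosensory genes lie at or below 0 apart from Gng13 at 0.01, and the 5 red genes stand in the other 4 role lists.

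The chemosensory list showed 0 of 9 measured genes past the test, with 1 positive and a median of -0.13. Among all genes 3.82% passed as higher and 1.52% as lower. Gnb3, a G protein subunit of the taste cascade, read 27.9, 30.6 and 26.9 in DBZ replicates 1, 2 and 3, against 32.2, 33.6 and 31.8 in vehicle replicates 1, 2 and 3, among the dim probe sets on all arrays (log2 fold change -0.13 ± 0.06, SE; limma, adjusted p = 0.240). Plcb2, the phospholipase of that cascade, was at -0.17 ± 0.08 (SE; limma, adjusted p = 0.254). Of the 9 genes 5 were below the 95th percentile of the receptor genes on all 6 arrays, namely Gnb3, Gng13, Tas1r1, Tas2r108 and Sucnr1. Plcb2, Itpr3, Tas1r3 and Trpm4 were above it on all 6.

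Among 8 eicosanoid genes 1 rose and 0 fell, with 7 positive and a median of 0.32. For all counts in this paragraph, 3.82% of all genes passed as higher and 1.52% as lower. Alox5ap, which hands arachidonic acid to 5-lipoxygenase, read 344, 386 and 574 in DBZ replicates 1, 2 and 3, against 173, 197 and 155 in vehicle replicates 1, 2 and 3. All DBZ arrays stood above the vehicle arrays, with a log2 fold change of 1.21 ± 0.20 (SE; limma, adjusted p = 0.0326). It was highest in DBZ replicate 3, unlike Dclk1, and it is also a gene of myeloid cells. Of 5 neutrophil markers S100a8 and S100a9 rose, at 4.97 and 4.82 on the log2 scale, and Csf3r, Ngp and Mpo did not pass, at 0.37, -0.10 and -0.15. Of 7 macrophage markers 0 passed, with values from -0.34 for Csf1r to 1.12 for Cd14 and 6 of 7 positive. The part of such cells in the value of Alox5ap was not tested. With a pseudocount of 64 the call ended (limma, adjusted p = 0.0563). Hpgds, the prostaglandin D synthase of tuft and mast cells, was at 0.35 ± 0.09 (SE; limma, adjusted p = 0.0788). Its values in vehicle replicates 1, 2 and 3, at 33.7, 40.3 and 44.1, lay below the 95th percentile of the receptor genes. Those of the DBZ arrays lay above it.

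Of 6 measured transcription factors 1 rose and 0 fell (median 0.10), where 3.82% and 1.52% of all genes passed in these directions. Sox9, a factor of crypt base and Paneth cells as well, read 286, 319 and 375 in DBZ replicates 1, 2 and 3, against 188, 193 and 192 in vehicle replicates 1, 2 and 3. The groups were apart, and the log2 fold change was 0.72 ± 0.10 (SE; limma, adjusted p = 0.0270). Spib, a factor of tuft, M and B cells, was at 0.36 ± 0.22 (SE; limma, adjusted p = 0.353), with its highest value of 187 in DBZ replicate 2.

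Of 16 genes of cytokine and immune signalling 1 rose and 0 fell, with 11 positive and a median of 0.11. Among all genes 3.82% passed as higher and 1.52% as lower, so the count lay near that share. Skap2, an adaptor of immune receptor signalling, read 773, 859 and 962 in DBZ replicates 1, 2 and 3, against 594, 567 and 647 in vehicle replicates 1, 2 and 3, a log2 fold change of 0.51 ± 0.10 (SE; limma, adjusted p = 0.0462). The call ended after quantile normalization, centring on array medians, with a pseudocount of 64 and with the mean of its probe sets (limma, adjusted p = 0.0554, 0.0527, 0.0609 and 0.0688), and without any single array other than DBZ replicate 1 (0.0803 to 0.133). Its other probe sets were at 0.08 and 0.22. Fyb, another adaptor, was at 0.49 ± 0.13 (SE; limma, adjusted p = 0.0797). Il17rb, the receptor of Il25, was at -0.33 ± 0.15 (SE; limma, adjusted p = 0.225), a gene added here because it pairs with Il25 and not by the naming rule.

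Of 9 measured genes of the cytoskeleton and cell surface 2 rose and 0 fell (median 0.06). In these directions 3.82% and 1.52% of all genes passed. Nrep, a neuronal regeneration protein, read 318, 363 and 311 in DBZ replicates 1, 2 and 3, against 121, 127 and 125 in vehicle replicates 1, 2 and 3, a log2 fold change of 1.30 ± 0.08 (SE; limma, adjusted p = 0.00406). All DBZ arrays stood far above the vehicle arrays. Cd24a, a surface glycoprotein that Paneth and endocrine cells also carry, read 10299, 13437 and 13494 in DBZ replicates 1, 2 and 3, against 6580.3, 6523 and 6050.1 in vehicle replicates 1, 2 and 3, a log2 fold change of 0.95 ± 0.12 (SE; limma, adjusted p = 0.0241).

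Markers of other cells were set beside these values. For the counts that follow, 3.82% of all genes passed as higher and 1.52% as lower. A summed intensity mainly follows the brightest genes of its list. Enteroendocrine genes, of which 2 of 10 rose, had summed intensities of 5178, 13387 and 13073 in DBZ replicates 1, 2 and 3, against 3490.3 to 4404 in vehicle arrays. They were thus also high in DBZ replicates 2 and 3 and lower in DBZ replicate 1. Chga read 375, 800 and 862 in DBZ replicates 1, 2 and 3, against 247 to 349 in vehicle arrays. Chgb, a granin of hormone granules, read 2069.8, 6393 and 5709 in DBZ replicates 1, 2 and 3, against 1298, 1681 and 1358 in vehicle replicates 1, 2 and 3. Neurod1, an early endocrine factor, stood at 312, 432 and 385 in DBZ replicates 1, 2 and 3, against 90.4 to 95.9 in vehicle arrays, and so was high in DBZ replicate 1 as well.

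Neutrophil genes, of which 2 of 5 rose, summed to 3109, 694 and 5428 in DBZ replicates 1, 2 and 3. The vehicle sums were 150.04 to 209.8. Most of the DBZ sums came from S100a8 (1486, 308 and 2746) and S100a9 (1456, 259 and 2532), the 2 that rose. Csf3r, Ngp and Mpo did not pass. Mesothelial genes (0 of 6 past the test) summed to 804, 463 and 1258 in DBZ replicates 1, 2 and 3, against 358 to 391 in vehicle arrays, and macrophage genes (0 of 7) to 7884, 6667 and 11294, against 6561 to 7730.4. On these 3 lists DBZ replicate 2, the array with the highest Dclk1, Avil, Rgs13, Trpm5 and Gfi1b, was the lowest of the DBZ arrays. Mesenchymal genes (6 of 10 rose) summed to 41725, 44326 and 48900 in DBZ replicates 1, 2 and 3. Their vehicle sums were 19394 to 28522. Adipocyte genes (2 of 4 rose) summed to 2689.5, 2013 and 5248 in the same DBZ arrays, against 350.3 to 940.3. Among all genes 3.82% passed as higher and 1.52% as lower. By sum, DBZ replicate 2 was also the lowest DBZ array on the adipocyte and lymphocyte lists. It was not the lowest on the mesenchymal, platelet, mast cell or neuron lists. The part of all these cells in the values of the tuft cell genes was not tested.

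Mast cell and basophil genes were dim: all 9 were below the 95th percentile of the receptor genes on all 6 arrays. Of these 0 passed the test. Platelet and erythroid genes showed 1 of 7 higher and 3 of 7 positive, with sums of 1114 to 1404 in DBZ and 1299 to 1609.6 in vehicle arrays. The higher gene was Pf4, at 323, 266 and 514 in DBZ replicates 1, 2 and 3. In vehicle replicates 1, 2 and 3 it read 171, 129 and 142, a log2 fold change of 1.19 (limma, adjusted p = 0.0478). Whether such cells contribute to the values of the tuft cell genes was not tested. Lymphocyte genes summed to 1169.8 to 2786 in DBZ and 2625 to 5597 in vehicle arrays, with 0 of 7 past the test, and genes of neurons and glia to 447 to 525 and 341 to 432, with 0 of 6. Goblet genes (2 of 7 rose) summed to 134445, 158446 and 165610.0 in DBZ replicates 1, 2 and 3, against 108438 to 116301 in vehicle arrays. Paneth genes summed to 35145, 58698 and 70842 in DBZ replicates 1, 2 and 3, against 62048 to 74393 in vehicle arrays. DBZ replicate 1 was the lowest DBZ array on both lists, as it was for the tuft and enteroendocrine genes. By sum it was also the lowest DBZ array on the mesenchymal list. The same held for the list of neurons and glia, at 447, 525 and 510 in DBZ replicates 1, 2 and 3. Of the 6 Paneth genes Mmp7 and Pla2g2a rose, at 1.37 and 2.18 on the log2 scale, and 0 passed as lower, with a list median of -0.35. Ang4 and Mptx1 stood at -2.70 and -2.25 with all DBZ arrays below the vehicle arrays (limma, adjusted p = 0.0683 and 0.0647), and Lyz1 and Itln1 at -0.30 and -0.41. Stem cell genes showed 1 of 9 higher and 2 lower, where 3.82% and 1.52% of all genes passed in these directions. The 2 lower were Olfm4 and Ascl2, at -6.63 and -1.03 on the log2 scale (limma, adjusted p = 0.000416 and 0.0248). Ascl2 read 87.2, 87.1 and 64.2 in DBZ replicates 1, 2 and 3, against 155, 185 and 197 in vehicle replicates 1, 2 and 3. The higher gene was Rgmb, at 0.79 (limma, adjusted p = 0.0217). Of 9 epithelial genes 0 passed, with sums of 114397 to 125920.0 in DBZ and 117033 to 128839 in vehicle arrays.

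**Figure D4:**
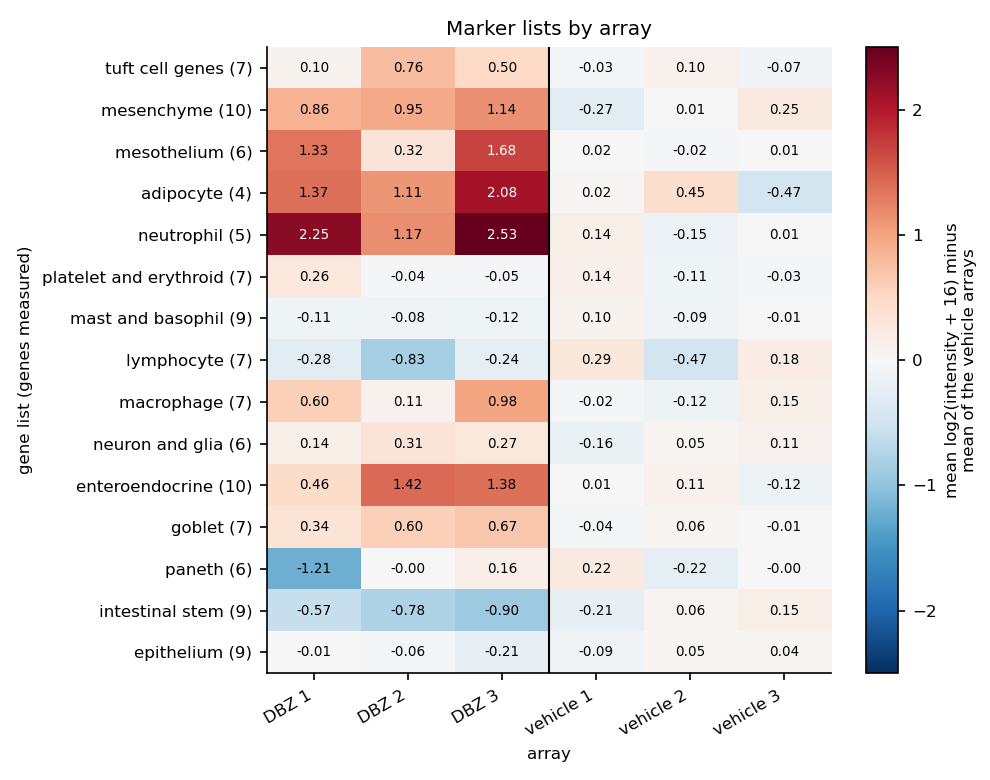
Mean log2(intensity + 16) of each marker list on each array minus the mean of the vehicle arrays, with DBZ arrays left of the line. The tuft cell genes stand at 0.10, 0.76 and 0.50 and the enteroendocrine genes at 0.46, 1.42 and 1.38 in DBZ replicates 1, 2 and 3, whereas the neutrophil genes stand at 2.25, 1.17 and 2.53. DBZ replicate 1 is also the lowest DBZ array for neurons and glia (0.14, 0.31 and 0.27) and for mesenchyme (0.86, 0.95 and 1.14).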

How the data were processed

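RNA of the sorted cells was extracted, amplified with a 3′ IVT kit and hybridised to Affymetrix arrays, per the labels' protocols. The table holds 1 linear intensity per probe set and array, as deposited. Its background correction and scaling by the authors are not stated in the labels, and it has no detection calls. Of 45101 probe sets, 64 array controls, 932 with several symbols and 9160 with none were left out. The array medians differed by 0.03 on the log2 scale, so the values were kept as deposited. The mean of log2(intensity + 16) was compared between 3 DBZ and 3 vehicle arrays with limma 3.58.1 in R 4.3.3 (lmFit, eBayes, two-sided, Benjamini-Hochberg over all 18193 genes). Differences of dim genes come out too small on this scale. SE is the moderated standard error. Precision is limited by having 3 arrays a group. The fit was tested on simulated data. The 71 olfactory and vomeronasal receptor genes served as dim probe sets.

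The members and lists were chosen with earlier results of these data known. The text names all members and the 3 genes nearest to Dclk1. Of each role list it names every called gene, filled up to 2 with the smallest p. Of each marker list the first 3 measured were to be named, where shown. The chemosensory, neutrophil and Paneth lists were named in full instead, Cd14 as the highest macrophage value and Rgmb as a called stem cell gene. Irag2 was measured under its older symbol Lrmp. The alternatives were quantile normalization, centring, other pseudocounts (1 and 64), a filter on dim genes, other probe set rules, another variance model, array weights, a replicate block and leaving out each array in turn.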

Additional observations from a re-analysis of the deposited data

How the results depend on the processing

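Over the 6 comparisons that each leave out 1 array, 16 to 1305 genes were higher and 3 to 727 lower. For the tuft cell genes the range was 0 to 4 higher, for their probe sets 0 to 9 higher, and for the other genes of tuft cells 1 to 8 higher and 0 to 2 lower. Leaving out vehicle replicate 2 left the fewest changed genes and leaving out DBZ replicate 1 the most. With a pseudocount of 64, 310 genes were higher and 130 lower, and 3 other genes of tuft cells were higher. With array weights 1660 genes were higher and 1030 lower, and 2 tuft cell genes were higher. The sign of Pou2f3 was reversed at 0.056 with array weights, 0.053 without DBZ replicate 3 and 0.045 without vehicle replicate 1, with none of these past the threshold, and its range over the arrays left out was -0.064 to 0.053. Apart from array weights and leaving out DBZ replicate 1, the alternatives run gave 0 tuft cell genes past the threshold. Over all alternatives the adjusted p (limma) was 0.0124 to 0.337 for Dclk1, 0.0187 to 0.277 for Avil, 0.0139 to 0.417 for Rgs13 and 0.0188 to 0.197 for Trpm5.

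With the replicate block 672 genes were higher and 217 lower, 0 tuft cell genes and 4 other genes of tuft cells were higher, and Alox5ap lost its call (limma, adjusted p = 0.0539). Under the block the adjusted p (limma) was 0.0813 for Dclk1, 0.0652 for Avil, 0.142 for Rgs13 and 0.0947 for Trpm5. The deviations of same-numbered arrays correlated at -0.01, 0.25 and 0.20, across genes, and 4 of 6 arrays correlated best with their own number. These values do not settle whether the arrays were paired. No label says that the numbers mark a shared litter or day, so the block was kept as an alternative only. The filter on dim genes left out Dclk1, Trpm5, Pou2f3, Il25 and Gfi1b. Il25 and 5 of 9 chemosensory genes were dim on all arrays, which limits what could be seen of them.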
